A study of Mus musculus with 12 samples.

Results

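The genes described here belong to the hypoxia-inducible factor (HIF) pathway: the oxygen-regulated subunits Hif1a and Epas1, the prolyl hydroxylases Egln1 and Egln3, the ubiquitin ligase subunit Vhl, and the hypoxia-induced genes Vegfa, Adm, Bnip3, Ndrg1 and Ankrd37. They were chosen by name, and the 23 probe sets annotated with these 10 symbols were taken from 45101 probe sets, which name 18193 genes by a single symbol. Expression was measured on Affymetrix Mouse Genome 430 2.0 arrays in renal cortex, the outer kidney layer that holds the glomeruli and most proximal tubules, as total RNA from whole tissue. There were 4 groups of 3 arrays: ICR mice, an outbred stock that served as the normal control, at 4 and 8 weeks of age, and ICGN mice, the ICR-derived glomerulonephritis strain, at the same ages. The labels give nephrotic syndrome as the ICGN phenotype, and no group received an agent. ICGN mice carry a natural mutation of Tns2, a focal adhesion adaptor of podocytes, and the strain is separate from the ICR stock, so strain differences need not stem from that mutation. The labels number the samples without saying that each is a separate mouse, so a p-value reflects only how much these samples vary, which may be partly technical. In whole cortex, fewer cells of a type and less RNA per cell cannot be told apart.

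In the presence of oxygen, the prolyl hydroxylases encoded by Egln1, Egln2 and Egln3 mark the HIF alpha subunits, VHL binds the hydroxylated protein and the subunit is degraded. When oxygen is short the alpha subunits escape, pair with the beta subunit Arnt and switch on genes for angiogenesis, glycolysis, iron uptake and mitochondrial turnover, among them Egln3 itself. In the kidney HIF-1 alpha is known mainly from tubule cells and HIF-2 alpha, the Epas1 product, from endothelial and interstitial cells, where it drives erythropoietin. The main control of both subunits is protein stability, which mRNA arrays do not measure.

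HIF dimers bind the core hypoxia response element, written ACGTG or GCGTG. Promoter windows of 250 bases upstream of the start, from RefSeq on GRCm38.p6, matched 8 of the 10 genes. There were 9 windows, and 4 are shown because their genes carry the strain differences at 8 weeks. The windows lie at chr12:54203875-54204124 for Egln3, chr8:124949255-124949504 for Egln1, chr7:138909507-138909756 for Bnip3 and chr17:46032378-46032627 for the upstream Vegfa start, all on the minus strand. Capitals mark ACGTG or GCGTG read on either strand, which appear as CACGT or CACGC where the match is on the other strand and may overlap.
Egln3: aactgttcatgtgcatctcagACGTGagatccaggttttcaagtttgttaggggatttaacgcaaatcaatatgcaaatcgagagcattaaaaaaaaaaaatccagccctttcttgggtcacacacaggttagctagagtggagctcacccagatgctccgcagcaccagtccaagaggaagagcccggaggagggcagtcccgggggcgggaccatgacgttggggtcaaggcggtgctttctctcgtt
Egln1: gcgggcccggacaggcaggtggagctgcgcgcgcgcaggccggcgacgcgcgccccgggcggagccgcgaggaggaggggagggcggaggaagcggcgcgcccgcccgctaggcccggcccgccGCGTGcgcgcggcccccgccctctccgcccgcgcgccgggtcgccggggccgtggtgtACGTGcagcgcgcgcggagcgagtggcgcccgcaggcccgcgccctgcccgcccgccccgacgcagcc
Bnip3: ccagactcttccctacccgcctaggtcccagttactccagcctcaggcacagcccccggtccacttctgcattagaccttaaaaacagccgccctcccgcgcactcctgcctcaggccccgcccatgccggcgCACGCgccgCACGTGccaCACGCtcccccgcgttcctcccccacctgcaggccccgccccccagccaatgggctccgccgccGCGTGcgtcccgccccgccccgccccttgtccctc
Vegfa: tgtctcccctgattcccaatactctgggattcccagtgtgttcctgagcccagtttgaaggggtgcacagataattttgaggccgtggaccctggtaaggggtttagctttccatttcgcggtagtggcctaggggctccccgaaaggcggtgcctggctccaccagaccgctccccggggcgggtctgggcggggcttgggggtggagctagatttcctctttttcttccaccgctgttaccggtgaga
The Egln3 window held 1 match, 229 bases before the start, the Egln1 window held GCGTG at 126 and ACGTG at 68 bases, and the Bnip3 window held 5 matches, between 117 and 35 bases before the start. The upstream Vegfa window held neither string, while a window at a second Vegfa start inside the gene, not shown, held GCGTG at 218 and ACGTG at 211 bases before that start. Over all windows of these genes, 7 of 9 held either string, against 12679 of 32851 windows of all genes (38.6%). For ACGTG the counts were 6 of 9 against 16.6% of all windows, and for GCGTG 5 of 9 against 28.2%. The matches describe the letters of these windows and are not measured binding sites. Epas1 and Ndrg1 are named only.

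The deposited values were MAS5 signals, with array medians of 17.4 to 19.03 at 4 weeks and 75.3 to 108 at 8 weeks. Each array was therefore scaled to a common median of 40.4, and signals below are on that linear scale. A gene was tested where its probe set exceeded its own array's median in at least 3 of 12 arrays. Of the 23 probe sets 21 passed, covering 9 of the 10 genes, and each of the 9 representative probe sets exceeded the median in 12 of 12 arrays. Each gene is represented by its brightest probe set, with cross-hybridising (_x_at) sets taken last. For Adm and Ndrg1 an _x_at set was brighter than the representative. Differences are log2 fold changes ± SE from limma, computed on log2(signal + 11) and printed after subtraction of the median tested gene's own log2 fold change. This scale understates changes of dim genes. A gene was called at a Benjamini-Hochberg adjusted p of 0.05 or less over 12385 genes, a test made on the value before the median gene was subtracted. The median gene stood at -0.02 at 4 weeks and -0.18 at 8 weeks (ICGN over ICR). Replicates correlated at 0.978 to 0.989 within groups. Tns2 signal was 48.3 to 114 in ICGN and 310 to 343 in ICR arrays. The 3'/5' signal ratio of Actb, a measure of RNA quality, was 1.34 to 1.49 over all 4-week arrays, 1.70 to 2.10 in ICR and 1.57 to 1.64 in ICGN at 8 weeks. The same ratio of Gapdh was 0.78 to 0.82 over the arrays of all 4 groups. The part of these ratios in the results was not tested.

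**Figure D1:**
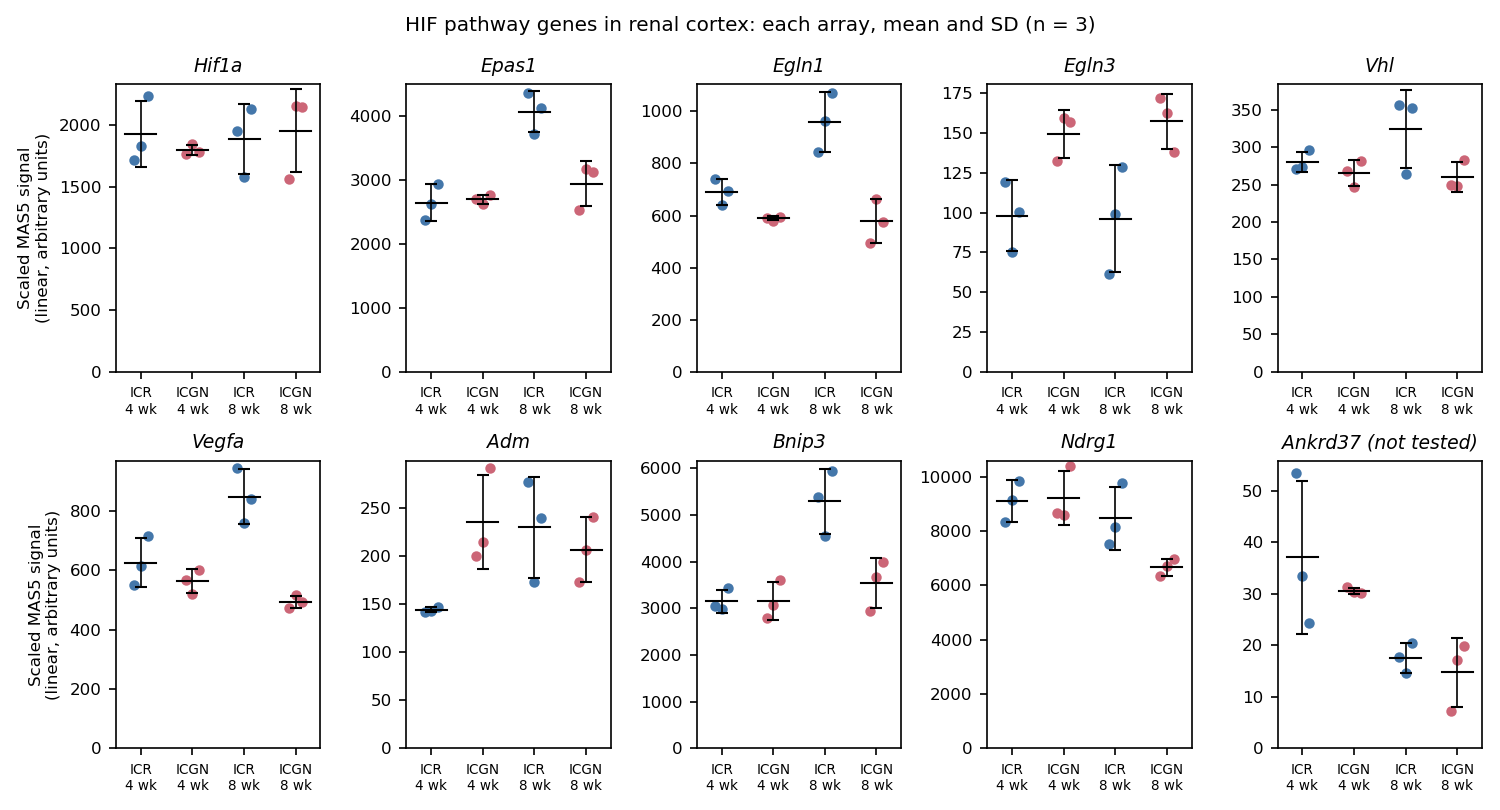
Scaled linear signal (arbitrary units, axis from 0) of the representative probe set of each of the 10 genes, with each array as a point, the group mean as a line and the SD as a bar (n = 3; blue ICR, red ICGN). At 8 weeks the ICR arrays lie above every ICGN array for Epas1, Egln1, Vegfa, Bnip3 and Ndrg1, and below every ICGN array for Egln3; Ankrd37 was too dim to test.

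At 4 weeks, the first age compared, none of the 9 genes was called between ICGN and ICR by limma, while 347 of 12385 genes (2.8%) were called over the whole array, 1.51% higher and 1.29% lower. None of the 21 probe sets was called either, against 2.32% of all probe sets. At an unadjusted p under 0.05 there were 2 of the 9, Adm and Egln3, both higher in ICGN, against 1806 of 12385 genes in either direction. The median difference of the 9 genes was 0.02. Adm encodes adrenomedullin, a vasodilator peptide. Its signals in ICR were 142, 143 and 147 (144 ± 2.57, SD, n = 3) and in ICGN 200.05, 214 and 291 (235 ± 49.1), so that each ICGN array lay above each ICR array. The difference was 0.67 ± 0.18 with a limma adjusted p of 0.0719, and 369 of the 12385 genes stood higher. This value came under the threshold with other scalings, at adjusted p of 0.0322 after quantile normalization, 0.0393 with arrays centred on the tested genes and 0.0243 with the authors' scaling, and at 0.0418 in a fit of the 4-week groups alone. These were the only 4 of 17 alternative analyses that called Adm, and the limma adjusted p reached 0.251 among the others. No fit that left out a single array called it, and the difference fell to 0.52 in 1 of them. The other Adm probe set gave 0.62 ± 0.26 and also had no overlap between the groups.

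Egln3, a hydroxylase that is itself a hypoxia-induced gene, gave 119, 75.1 and 100.4 in ICR at 4 weeks (98.1 ± 22.1). Its ICGN arrays gave 132, 159 and 157 (149.6 ± 15.01), a difference of 0.59 ± 0.21 (limma adjusted p = 0.203). For Egln1, the main oxygen sensor, the ICR arrays at 739, 641 and 693 (691 ± 49.3) lay above the ICGN arrays at 590.4, 580.5 and 596 (589 ± 7.95), with a difference of -0.21 ± 0.13 (limma adjusted p = 0.475). Groups without overlap occurred in 22.8% of all genes at this age. The other 6 genes lay between -0.13 (Vegfa) and 0.05 (Epas1), with limma adjusted p of 0.693 or more. Of Hif1a, ICR arrays read 1721, 1829 and 2235 and ICGN arrays 1763, 1844 and 1783, and of Bnip3 the group means were 3153 ± 243 and 3164 ± 410.4. Both genes overlapped between the strains, and the interval of the Bnip3 difference, 0.02 ± 0.14 SE, leaves room for small changes either way.

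At 8 weeks 5 of the 9 genes were called between the strains. Egln3 was higher in ICGN cortex, and Vegfa, Egln1, Bnip3 and Epas1 were lower. The background at this age was high: 33.5% of all genes were called, 8.28% higher and 25.2% lower, against 1 of 9 and 4 of 9 here, and groups did not overlap for 44.5% of all genes, against 6 of 9 here. Of the 21 probe sets, 8 were called, against 26.7% of all probe sets. The median difference of the 9 genes was -0.15. The direction of the calls over all genes depended on the scaling: the higher share of calls was 24.7% here, 34.5% with arrays centred on the tested genes, 50.7% after quantile normalization and 60.2% with the authors' scaling. Of the 5 genes, Egln1, Vegfa and Egln3 were called under each of these scalings.

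Among the alpha subunits, Epas1 was the one called. Its ICR arrays at 8 weeks read 4360.3, 3721 and 4136 (4072 ± 325) and its ICGN arrays 2540.2, 3171 and 3133 (2948 ± 354). Each ICR array lay above each ICGN array, and the difference was -0.29 ± 0.12 (limma adjusted p = 0.00941). The second Epas1 probe set gave -0.33 ± 0.17 (adjusted p over probe sets in limma, 0.0379). The call was lost after quantile normalization, at -0.04 with an adjusted p of 0.590, and with the authors' scaling, at -0.27 with 0.0758. Hif1a read 1951, 1578 and 2135 in ICR (1888 ± 284) and 1566, 2157 and 2145 in ICGN (1956 ± 338), and the strains overlapped. Its difference of 0.23 ± 0.15 had a limma adjusted p of 0.835 and was called higher after quantile normalization (0.41, adjusted p = 0.0106) and with the authors' scaling (0.24, 0.0472). The dimmer Hif1a probe sets gave 0.64 ± 0.21 and 0.51 ± 0.16, neither called over probe sets in limma (adjusted p of 0.119 and 0.164).

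The hydroxylases differed in opposite directions. Egln1 read 842, 964 and 1071 in ICR (959 ± 115) and 495, 663 and 575 in ICGN at 8 weeks (578 ± 84.0), with no overlap and a difference of -0.54 ± 0.13 (limma adjusted p = 0.000812). It was called in 17 of 17 alternative analyses, with adjusted p up to 0.00738, and its second probe set was called lower at -0.18 ± 0.12 (adjusted p over probe sets, 0.0434). Egln3 read 61.2, 98.8 and 129 in ICR (96.3 ± 33.9) and 172, 162 and 138 in ICGN (157 ± 17.4), where the lowest ICGN array lay just above the highest ICR array. The difference was 0.88 ± 0.21 (limma adjusted p = 0.0216), and 716 of the 12385 genes stood higher. The Egln3 call rested on single arrays: it was lost without ICGN replicate 1 (0.76, adjusted p = 0.0769), without ICGN replicate 2 (0.86, 0.0585) and without ICR replicate 1 (0.63, 0.0970). The dimmer Egln3 probe set gave 0.91 ± 0.32 and was not called (adjusted p over probe sets, 0.107), with ICR arrays at 17.8, 8.17 and 47.8 and ICGN arrays at 37.6, 40.5 and 47.2 that overlapped.

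Vhl, the substrate-binding subunit of the ligase that follows the hydroxylases, read 357, 265 and 353 in ICR (325 ± 52.1) and 249.96, 248 and 283 in ICGN at 8 weeks (260.2 ± 19.7). A single ICR array fell within the ICGN range, and the difference of -0.11 ± 0.13 was not called (limma adjusted p = 0.0974). Without that array, ICR replicate 2, the adjusted p was 0.0234. The second Vhl probe set gave -0.10 ± 0.16 and was not called (adjusted p over probe sets in limma, 0.202), though its groups did not overlap.

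**Figure D2:**
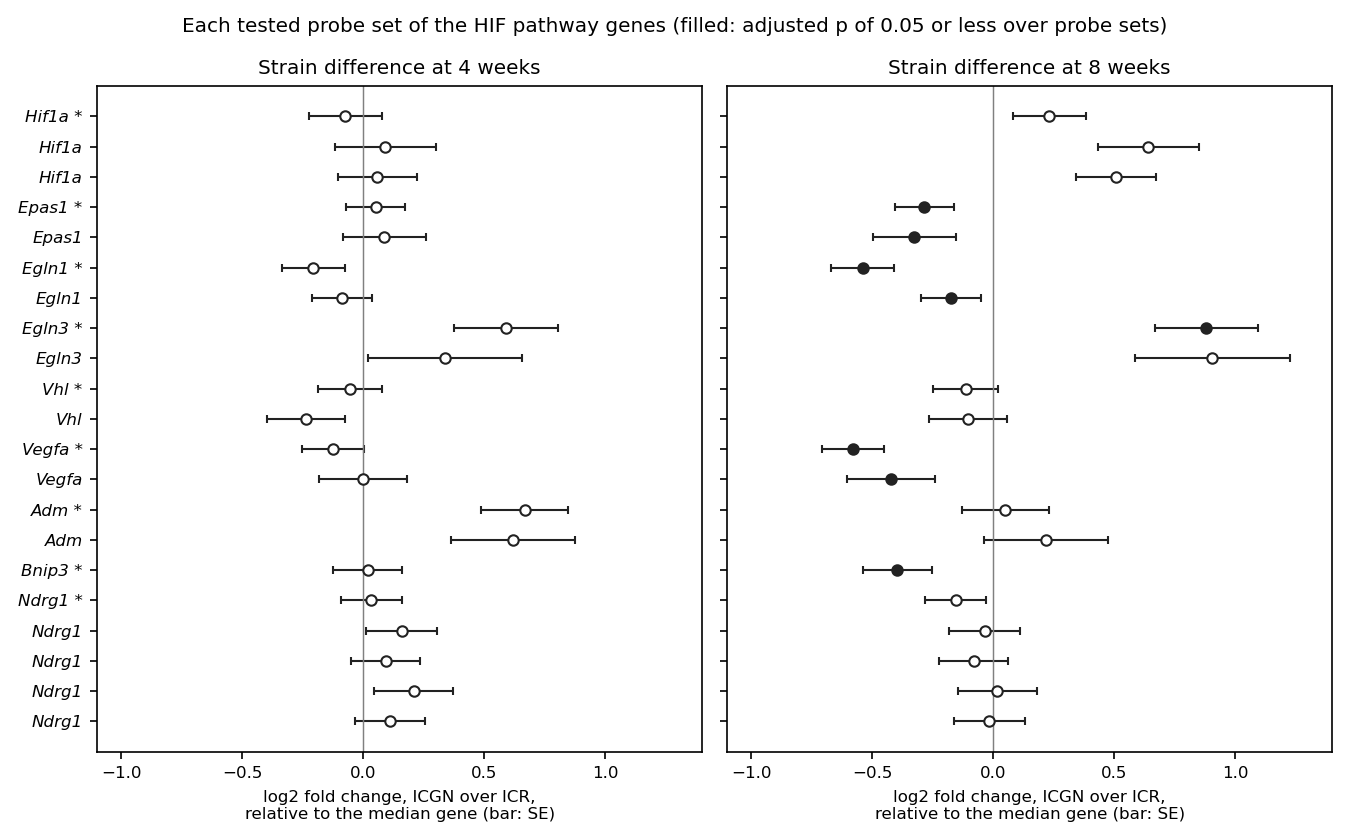
log2 fold change of ICGN over ICR relative to the median gene, with its SE as a bar, for the 21 tested probe sets at 4 weeks (left) and 8 weeks (right); filled points were called over probe sets and an asterisk marks the representative probe set. No point is filled at 4 weeks, while at 8 weeks both probe sets of Epas1, Egln1 and Vegfa are filled on the lower side.

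Of the secreted ligands, Vegfa, which encodes the main endothelial growth factor of the glomerulus and tubule, was lower and Adm was not called. Vegfa read 946, 762 and 841 in ICR (849 ± 92.3) and 474, 516 and 492 in ICGN at 8 weeks (494 ± 20.9). The groups did not overlap, and the difference was -0.58 ± 0.13 (limma adjusted p = 0.000472), and 777 of 12385 genes stood lower. Vegfa was called in 17 of 17 alternative analyses, with adjusted p up to 0.00442. Its second probe set read 104, 181 and 160.5 in ICR and 85.6, 105 and 84.1 in ICGN, overlapping by a single array, and was called lower at -0.42 ± 0.18 (adjusted p over probe sets, 0.0228). Adm read 277, 173 and 239.7 in ICR (230.1 ± 52.6) and 173, 206 and 240.3 in ICGN (207 ± 33.6). The strains overlapped, and the difference was 0.05 ± 0.18 (limma adjusted p = 0.588). The other, brighter Adm probe set also overlapped, at 0.22 ± 0.26, and was not called (adjusted p over probe sets in limma, 0.937).

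Bnip3, a mitochondrial outer membrane protein that promotes mitophagy, read 5379, 4555 and 5951 in ICR (5295 ± 702) and 2953, 3681 and 3992 in ICGN at 8 weeks (3542 ± 533). The groups did not overlap, and the difference was -0.40 ± 0.14 (limma adjusted p = 0.00649). The call was lost after quantile normalization (-0.19, adjusted p = 0.0600). Ndrg1, a stress-induced cytoplasmic protein, read 7502, 8156 and 9749 in ICR (8469 ± 1156) and 6323, 6695 and 6963 in ICGN (6661 ± 322). The arrays did not overlap, but the difference of -0.15 ± 0.13 missed the threshold (limma adjusted p = 0.0504), and after quantile normalization it stood at 0.09. It was called lower with no offset, with a filter at the 75th percentile, with the replicate block and without ICR replicate 1, with adjusted p down to 0.00950. The other 4 Ndrg1 probe sets lay between -0.08 and 0.02, and none was called. Ankrd37, an ankyrin repeat protein induced by hypoxia, read 17.6, 14.7 and 20.5 in ICR and 7.17, 17.1 and 19.9 in ICGN at 8 weeks, and 24.4 to 53.5 in ICR and 30.1 to 31.3 in ICGN at 4 weeks. These signals lay below the common median in all but a single array, and no test was made.

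**Figure D3:**
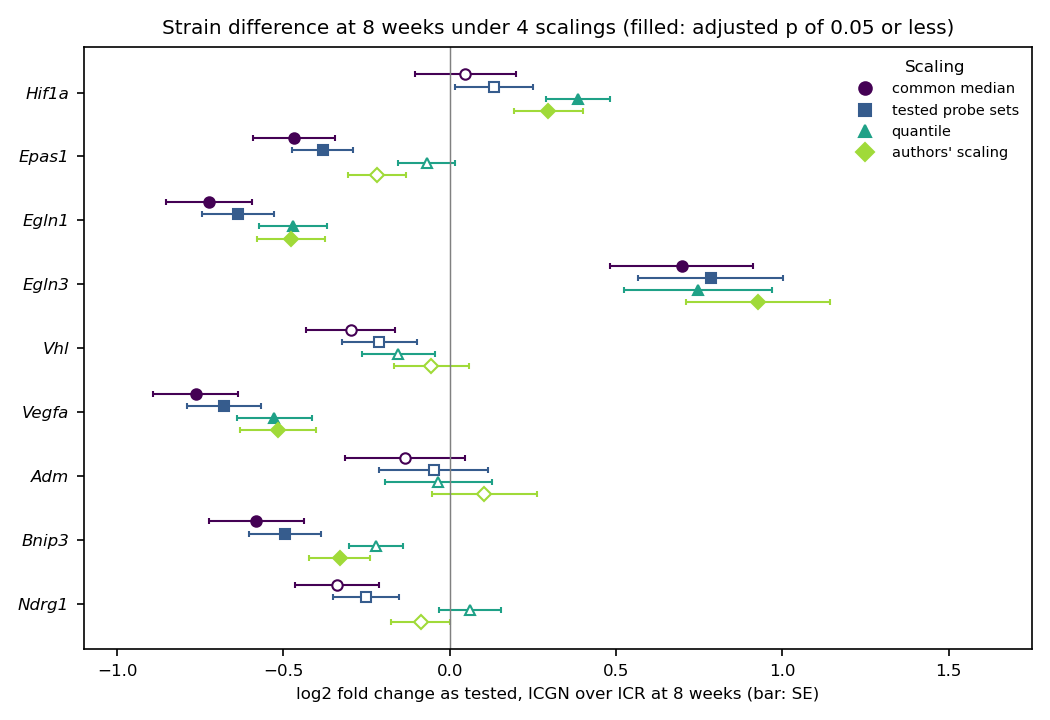
log2 fold change of ICGN over ICR at 8 weeks as tested, before the median gene was subtracted, with its SE, for the 9 tested genes under 4 scalings (filled: called). The Egln1 and Vegfa points stay filled and below 0 and the Egln3 points filled and above 0, while Epas1 and Bnip3 lose a filled point and Hif1a gains them after quantile normalization or the authors' scaling.

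The strain differences at 4 and 8 weeks were compared directly through the interaction, the 8-week difference minus the 4-week difference. None of the 9 genes was called by limma, against 6.95% of all genes (2% higher and 4.95% lower). At an unadjusted p under 0.05 there were 5 of the 9, against 3152 of 12385 genes in either direction. Each of the 5 went toward a lower ICGN value at 8 weeks. The median gene's own interaction, before subtraction, was -0.17. The median over the 9 genes was -0.33. Vegfa was nearest to the threshold at -0.45 ± 0.18 (limma adjusted p = 0.05002, between 0.0354 and 0.132 over the alternatives). Adm followed at -0.61 ± 0.25 (0.0728), Epas1 at -0.33 ± 0.17 (0.0886), Bnip3 at -0.41 ± 0.20 (0.0901) and Egln1 at -0.33 ± 0.18 (0.106). Leaving out ICR replicate 2 at 8 weeks brought Vegfa and Adm under the threshold, and leaving out ICR replicate 3 at 4 weeks brought Vegfa under it. Egln3, at 0.30 ± 0.30 with an adjusted p of 0.824, had no detectable change of its strain difference with age. A call at 8 weeks and none at 4 weeks is therefore not shown to be a difference between the ages for any of these genes.

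The arrays of the 4-week and 8-week groups had been scaled to different targets before deposit, so an age change and the processing of the arrays cannot be told apart. The age comparison in ICR also shares its 8-week arrays with the strain comparison above. In ICR, 5 of the 9 genes were called higher at 8 than at 4 weeks and none lower (0 at an unadjusted p under 0.05 as well, limma), against 17.5% of all genes higher and 10.5% lower. Bnip3 rose by 0.65 ± 0.14 (limma adjusted p = 0.00150), from a mean of 3153 to 5295. Epas1 rose by 0.53 ± 0.12 (0.00176), from 2649.5 ± 288 to 4072 ± 325, with arrays at 4 weeks of 2372, 2631 and 2946 that all lay below those at 8 weeks. Both were called in 17 of 17 alternative analyses. Egln1 at 0.38 ± 0.13, Vegfa at 0.35 ± 0.13 and Adm at 0.53 ± 0.18 also rose (limma adjusted p of 0.0159, 0.0191 and 0.0199), but each lost its call when single arrays were left out. Without ICR replicate 2 at 4 weeks 2 of the genes were called, and without ICR replicate 1 or replicate 3 at 8 weeks 3 were called. For Vegfa the probe sets disagreed: the representative rose from 627 ± 83.2 to 849 ± 92.3, while the second stood at 184 ± 29.4 and 148 ± 39.8, a difference of -0.40 ± 0.18 that was not called. The second probe sets of Epas1 at 0.13 ± 0.17 and Egln1 at 0.08 ± 0.12 were not called either, that of Adm rose by 0.83 (SE 0.26, adjusted p over probe sets in limma, 0.0153), and the dimmer Egln3 probe set fell by 1.11 (SE 0.32, 0.0272). The representative Vhl probe set stood at 0.11 ± 0.13 and the second at -0.51 ± 0.16, neither called.

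In ICGN, Ndrg1 fell with age and was the only one of the 9 genes called, against 6.06% of all genes higher and 12.3% lower; none of the 9 was higher at an unadjusted p under 0.05 (limma). Ndrg1 read 8666, 8585 and 10369 at 4 weeks (9207 ± 1008) and 6323, 6695 and 6963 at 8 weeks (6661 ± 322), a fall of 0.38 on the log2 scale (SE 0.13, limma adjusted p = 0.0191). The call was lost without ICGN replicate 3 at 4 weeks (adjusted p = 0.0873) and without ICGN replicate 2 at 8 weeks (0.0569). A further 3 Ndrg1 probe sets fell by 0.68 to 1.402 in ICGN, where 18.9% of all probe sets were called, and the same 3 fell by 0.51 to 1.21 in ICR, where 27.1% were called and the representative probe set stood at -0.20 and was not called. Epas1 stood at 0.20 ± 0.12 in ICGN, Bnip3 at 0.24 ± 0.14, Egln1 at 0.04 ± 0.13 and Vegfa at -0.10 ± 0.13, none called. The second Vegfa probe set fell by 0.82 in ICGN (SE 0.18, adjusted p over probe sets in limma, 0.00327). Adm stood at -0.09 ± 0.18 in ICGN and was not called. Its second probe set stood at 0.43 ± 0.26 and was not called either (adjusted p over probe sets in limma, 0.363), though its age groups did not overlap.

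**Figure D4:**
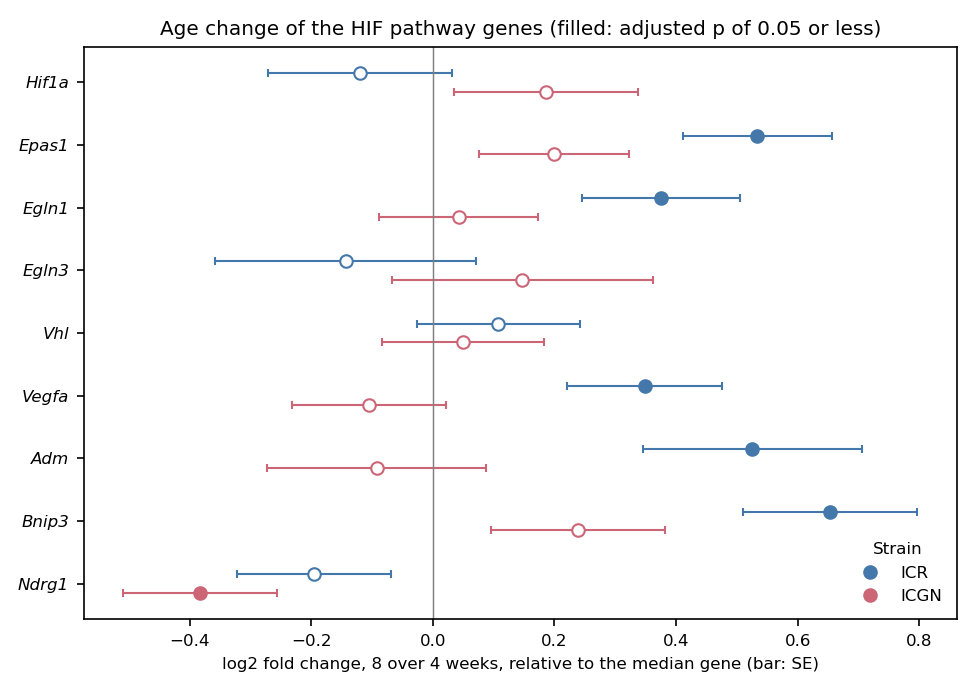
log2 fold change of 8 over 4 weeks relative to the median gene, with its SE, for the 9 tested genes in ICR (blue) and ICGN (red); filled points were called. In ICR the points of Epas1, Egln1, Vegfa, Adm and Bnip3 are filled on the higher side, and in ICGN only Ndrg1 is filled, on the lower side.

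The rest of the pathway was read from lists of known components and targets, leaving out the genes above. Among 6 further subunits and cofactors, ICGN cortex at 8 weeks had 2 higher and 1 lower (median 0.07), against 8.28% and 25.2% of all genes. Arnt, the beta subunit, was higher at 1.17 ± 0.24 (limma adjusted p = 0.00551), with means of 115 ± 37.2 in ICR and 235 ± 44.6 in ICGN, but its other 3 probe sets lay between -0.24 and 0.32 and were not called. Cited2, which competes with HIF for its coactivators, was higher at 0.71 ± 0.17 (0.0263), with strains that overlapped and a second probe set at 0.25 that was not called. Ep300, a coactivator, was lower at -0.25 ± 0.13 (0.0169), a call lost after quantile normalization and with the authors' scaling. At 4 weeks none of these 6 was called by limma, and 2 were higher at an unadjusted p under 0.05.

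Among 8 further genes of oxygen sensing and degradation, 4 were lower and none was higher in ICGN at 8 weeks (median -0.23; 1 higher at an unadjusted p under 0.05, limma), against 25.2% of all genes lower. Siah2, a ligase that degrades prolyl hydroxylases, was lower at -0.73 ± 0.16 (limma adjusted p = 0.000848), with 267 ± 5.58 in ICR and 140.3 ± 39.5 in ICGN, while its second probe set stood at -0.42 and was not called. Egln2, the third prolyl hydroxylase, was lower at -0.37 ± 0.15 (0.0104), Cul2, the scaffold of the VHL ligase, at -0.33 ± 0.13 (0.00713) and Elob, its elongin subunit, at -0.15 ± 0.12 (0.0360). Quantile normalization left 1 of these 4 called and the authors' scaling 2. None of the 8 was called at 4 weeks by limma, and 1 was lower at an unadjusted p under 0.05.

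Of the VEGF receptors and co-receptors, Kdr and Flt1 were lower at 8 weeks, while Flt4 at 0.10, Nrp1 at 0.05 and Nrp2 at -0.07 were not called. Among 11 further genes of VEGF and adrenomedullin signalling, 4 were lower and none higher in ICGN at 8 weeks (median -0.13; none higher at an unadjusted p under 0.05, limma), against 25.2% of all genes lower. Kdr, the main signalling receptor for VEGF-A, read 592, 667 and 661 in ICR and 281, 313 and 265 in ICGN, with no overlap and a difference of -0.95 ± 0.11 (limma adjusted p = 9.6e-06). Flt1, the receptor that also acts as a VEGF trap, read 365, 352 and 398 against 195, 192 and 204, a difference of -0.69 ± 0.12 (0.000105). Of its other 3 probe sets, which lay between -0.38 and -0.16, 1 was called. The adrenomedullin receptor partners Ramp3 (-0.42 ± 0.13, 0.00358) and Ramp2 (-0.21 ± 0.12, 0.0212) were lower, the latter not after quantile normalization or with the authors' scaling. At 4 weeks Kdr stood at 315 ± 15.1 in ICR and 334 ± 12.3 in ICGN. Nrp1, a VEGF co-receptor, was the only one of the 11 called, against 1.51% of all genes higher and 1.29% lower. It was higher at 0.55 ± 0.12 (0.0292) by 1 of its 4 probe sets. The interaction was called lower for 4 of the 11: Kdr at -1.04 ± 0.16 (0.00171), Flt1 at -0.66 ± 0.17 (0.0123), Ramp3 at -0.65 ± 0.19 (0.0215) and Nrp1 at -0.49 ± 0.17 (0.0352), against 4.95% of all genes. The Nrp1 call was lost after quantile normalization (-0.34). Of 10 endothelial markers outside these genes, 8 were lower in ICGN at 8 weeks (median -0.37). Among them were Ehd3 at -0.67, Tie1 at -0.45 and Pecam1 at -0.43. After quantile normalization 5 were lower, and with the authors' scaling the same 5 and Plvap were lower. The summed signal of the 10 markers was 5632 to 6905 in ICR and 4065 to 4836 in ICGN, with none at or below the common median. The part of endothelial content in the receptor values was not tested.

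Target genes outside the list of glycolytic targets moved in both directions. Of 29 tested, ICGN cortex at 8 weeks had 5 higher and 10 lower (median -0.05), against 8.28% and 25.2% of all genes. The counts were 6 and 4 after quantile normalization, 6 and 6 with arrays centred on the tested genes, and 9 and 5 with the authors' scaling. The higher genes included Igfbp1, a hypoxia-induced binding protein for insulin-like growth factors, at 1.87 ± 0.30 (limma adjusted p = 0.000793), Edn1, the precursor of the vasoconstrictor endothelin-1, at 1.41 ± 0.25 (0.00179), Angptl4, a lipoprotein lipase inhibitor, at 1.31 ± 0.32 (0.0151), and Lox, a collagen cross-linking enzyme, at 1.22 ± 0.23 (0.00373). Igfbp1 had means of 161 ± 19.1 in ICR and 569.5 ± 211 in ICGN, and its arrays did not overlap, whereas those of Angptl4 did. The lower genes included Tfrc, the transferrin receptor, at -1.45 ± 0.13 (2.17e-06), Igfbp3, another growth factor binding protein, at -1.27 ± 0.16 (1.55e-05), Ak4, a mitochondrial adenylate kinase, at -0.70 ± 0.15 (0.00058), and Car12, a membrane carbonic anhydrase, at -0.45 ± 0.14 (0.00274). The Car12 call was lost after quantile normalization.

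Some of these targets differed already at 4 weeks, when 3 of the 29 were higher and 1 lower (median 0.08), against 1.51% and 1.29% of all genes. Tfrc had means of 2093 ± 194 in ICR and 716 ± 133 in ICGN, a difference of -1.53 ± 0.13 (limma adjusted p = 2.75e-05). Igfbp1 was higher at 2.46 ± 0.30 (0.000619) and Edn1 at 1.11 ± 0.25 (0.0251). Hmox1, heme oxygenase 1, read 1374, 1694 and 419 in ICGN and 123, 61.6 and 101 in ICR, a difference of 3.31 ± 0.40 (0.000561). At 8 weeks the Hmox1 strains overlapped, at 247 ± 78.4 in ICR and 219 ± 62.8 in ICGN, and the interaction was called at -3.28 ± 0.56 (0.00493). As background, Hmox1 and Tfrc are also regulated by heme and iron.

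Of 13 glycolytic targets, ICGN cortex at 8 weeks had 1 higher and 5 lower (median 0.14), against 8.28% and 25.2% of all genes. The balance turned to 2 higher and 1 lower after quantile normalization and with the authors' scaling. Hk1, a hexokinase that starts glycolysis, was called higher under both (0.45 and 0.41) and with arrays centred on the tested genes, but not here (0.40). Ldha, which converts pyruvate to lactate, was lower at -0.57 ± 0.14 (limma adjusted p = 0.000841), with 7061 ± 909 in ICR and 4203 ± 653 in ICGN. Pfkl, Tpi1, Pgk1 and Pgam1, enzymes of the glycolytic chain, lay between -0.27 and -0.22, and their calls were lost after quantile normalization and with the authors' scaling. Pfkp, the platelet-type phosphofructokinase, was higher at 0.76 ± 0.19 (0.0276). Slc2a1, the glucose transporter GLUT1, at 0.29 ± 0.16 and Pdk1, which restrains pyruvate entry into mitochondria, at 0.26 ± 0.15 were not called (limma adjusted p of 0.631 and 0.717). None of the 13 was called at 4 weeks by limma, and at an unadjusted p under 0.05 1 was higher and 1 lower.

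**Figure D5:**
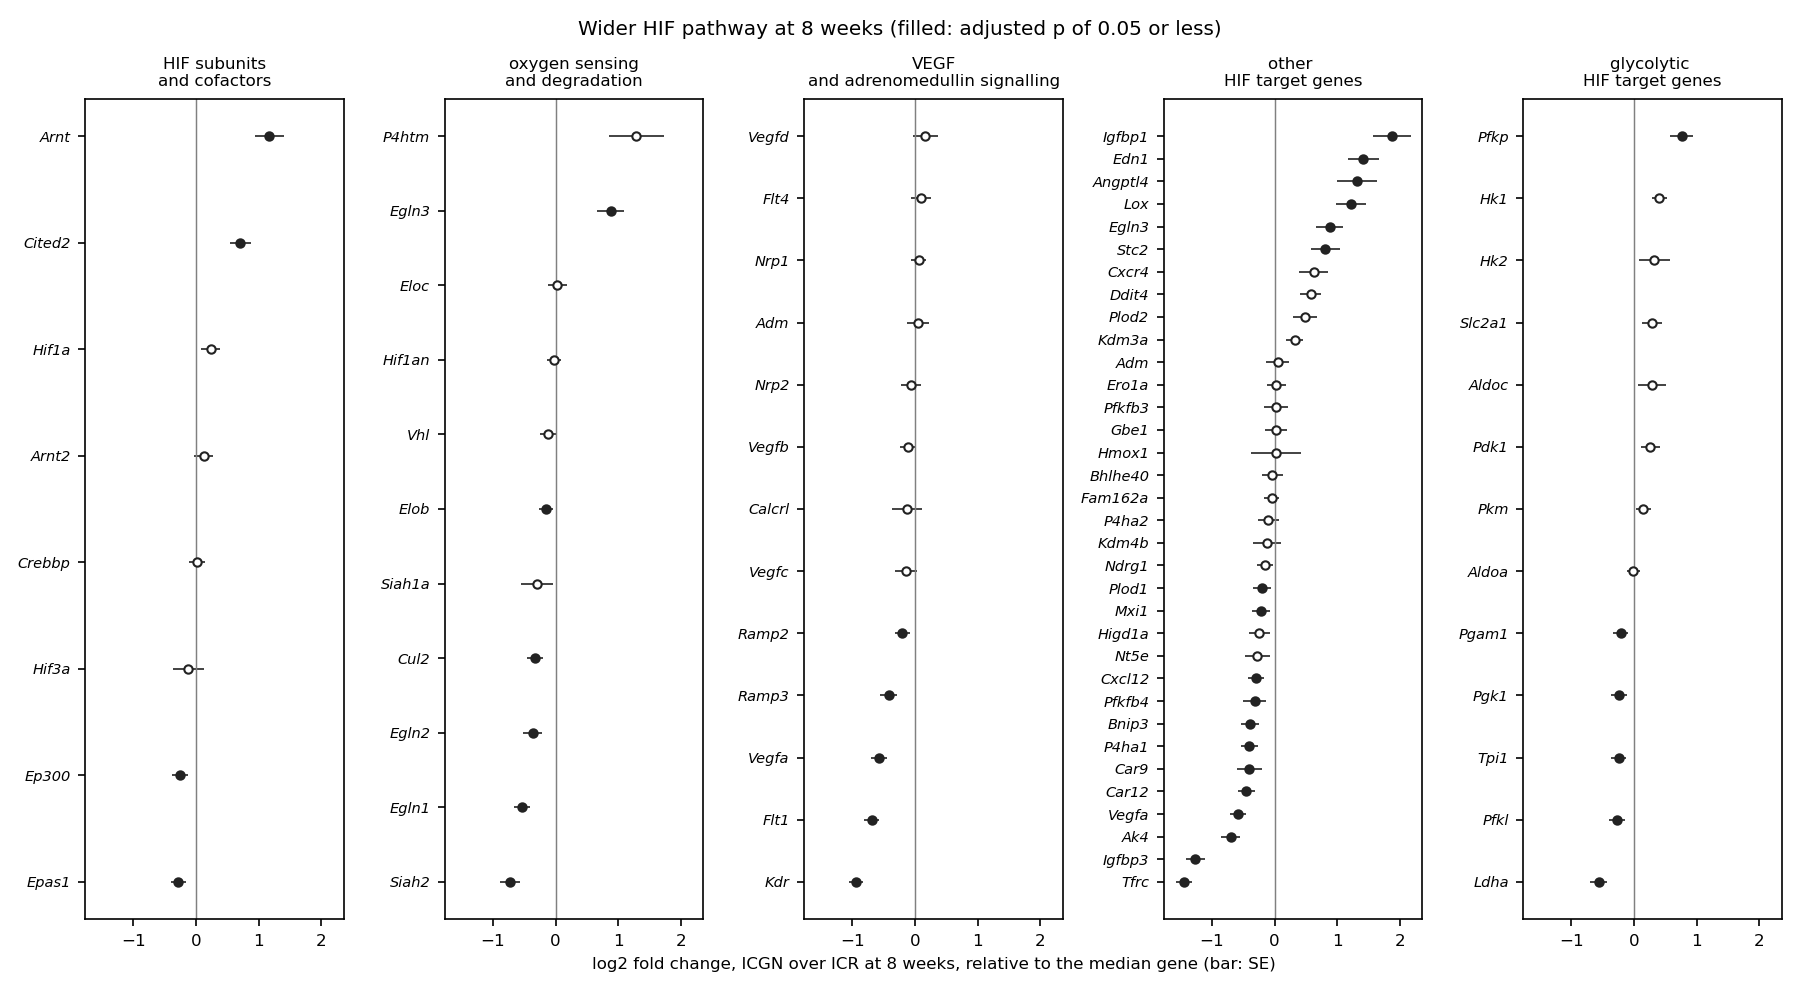
log2 fold change of ICGN over ICR at 8 weeks relative to the median gene, with its SE, for every tested gene of 5 lists of the HIF pathway, sorted within each list (filled: called). Filled points lie on both sides in the target lists, and the points of Kdr, Flt1 and Vegfa are the lowest of the VEGF and adrenomedullin list.

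Markers of the cell types in cortex differed between the strains at the same age, when 8.28% of all genes were called higher and 25.2% lower. At 8 weeks, 7 of 9 proximal tubule markers were lower in ICGN (median -0.40; 3 after quantile normalization and 5 with the authors' scaling; summed signal 56175 to 66970 in ICR and 34695 to 42684 in ICGN), and 3 of 8 thick limb and distal tubule markers were lower and 1 higher (29692 to 34945 against 17752 to 23876). Of 8 macrophage markers 7 were higher (median 1.62; 2656 to 3854 against 4573 to 6021), and of 8 fibroblast and pericyte markers 5 were higher (median 0.90; 6089 to 7354 against 9017 to 9656). Of 7 podocyte markers 2 were higher, Cdkn1c at 0.99 and Synpo at 0.62, and the summed signals overlapped (3113 to 3542 against 2922 to 4033). Of 6 collecting duct markers 2 were lower, and 2 were higher after quantile normalization. No marker of these lists was at or below the common median in every array of a group. Of 10 immediate early genes, a check on tissue handling, 6 were higher in ICGN at 8 weeks, and 2 of 2 erythroid markers were lower. The 6 included Fos, Egr2 and Atf3, 3 genes at or below the common median in every ICR array at 8 weeks. The part of these differences in the HIF pathway values was not tested.

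For each gene, the genes with the most similar profile were found as those with the smallest root mean square difference of mean-centred log2 values over the 12 arrays. The closest were Ezh1 to Epas1 (0.0634), Ppm1b to Bnip3 (0.0746), Socs7 to Egln1 (0.0771), Suox to Vegfa (0.102), Tap1 to Egln3 (0.192), Engase to Adm (0.166), Il10rb to Hif1a (0.0756), Otulin to Vhl (0.0661) and Prmt5 to Ndrg1 (0.0670). Ppp1r15b was the second closest to both Epas1 (0.0650) and Bnip3 (0.0805). The spread of these 9 genes' own values over the arrays was 0.163 to 0.403, so the match was loosest for Egln3 and Adm. These are descriptions over 12 arrays that share strain and age groups.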

How the data were processed

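The deposited intensity values were linear MAS5 signals, per the submitters' processing notes. A MAS5 version was not given in these sources. From the values, the authors had scaled the 4-week and 8-week arrays to different levels. Here each of the 12 arrays was scaled to a median of 40.4, and log2(signal + 11) was taken, an offset set at the scaled table's 25th percentile. Probe sets above their array's median in at least 3 of 12 arrays were kept: 24790 of 45101, naming 12385 genes. GEO's platform annotation gave 34958 probe sets 1 symbol, 932 several and 9211 none. Of those with 1 symbol 34754 matched RefSeq, and none was renamed; probe sets with several symbols were left unnamed. The brightest tested probe set stood for a gene, with cross-hybridising (_x_at) sets last.

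A linear model of 4 group means (8 residual degrees of freedom) was fitted over all features in limma 3.58.1 under R 4.3.3, with a mean-variance trend and Benjamini-Hochberg adjustment over genes or, for single probe sets, over probe sets. The code was tested on simulated data. The number of arrays, 3 per group, limits the precision. Alternatives covered scaling, offset, filter, variance trend, probe set summary, samples in the fit, a replicate block and leaving out each replicate. Text names were taken by rule: all 10 members, up to 4 called genes per list with the largest strain difference, and the nearest profiles; Lox, Igfbp3, Ak4, Car12, Flt4, Nrp2, Hk1, Pgk1, Pgam1, Slc2a1 and Pdk1 were named outside it, after their values were seen. The members, lists and tests were chosen with earlier results of these data known. Of 168 other list entries 155 had an annotated probe set.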

Additional observations from a re-analysis of the deposited data

Results flagged for a closer look

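The arrays of the representative Vegfa probe set separated by age in opposite directions in the strains: every 8-week ICR array lay above every 4-week ICR array, at 0.35 ± 0.13 on the log2 scale relative to the median gene, and every 8-week ICGN array lay below every 4-week ICGN array, at -0.10 ± 0.13. The interaction that tests this difference was -0.45 ± 0.18, with a limma adjusted p of 0.05002, just above the threshold, and the ICGN change was not called (0.336). The second Vegfa probe set stood lower at 8 weeks in both strains, at -0.40 in ICR, not called, and -0.82 in ICGN, and the mean of the probe sets gave -0.0032 and -0.47. The share of all genes whose arrays separate by age in this way is not given here. Both separations also depend on the rescaling, because the age groups had been scaled to different targets before deposit.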

How the results depend on the processing

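Of the members' alternative values at 8 weeks, 139 kept their side of the threshold, 6 lost a call and 7 gained 1; for the age change in ICR these counts were 137, 12 and 2. Uncalled values among them changed sign: at 8 weeks Ndrg1 reached 0.09 and Adm -0.11, and in ICR Vhl reached -0.18 and Egln3 0.11. Of called values in ICR, the Vegfa value turned to -0.0032 with the mean of its probe sets. Members called at 4 weeks went from 0 to 1 (Adm) after quantile normalization, with arrays centred on the tested genes, with the authors' scaling and with only the groups compared. For the interaction they went from 0 to 1 with 4 times the offset, with arrays centred on the tested genes and with a filter at the 75th percentile, and spanned 0 to 2 when replicates were left out. For the age change in ICR they went from 5 to 3 after quantile normalization and spanned 2 to 5 without single replicates. For the age change in ICGN they went from 1 to 0 with no filter and to 2 with the mean of the probe sets, and spanned 0 to 1 without single replicates. At 8 weeks they spanned 4 to 6.

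Genes called at 4 weeks went from 347 to 527 after quantile normalization and spanned 148 to 273 without single replicates (175 without ICGN replicate 1, 148 without ICGN replicate 2, 208 without ICR replicate 2). For the interaction they went from 861 to 425 without a variance trend. They spanned 355 to 942 without single replicates and 425 to 1187 over the other alternatives. For the age change in ICGN they went from 2271 to between 1363 and 2042 without single replicates, and spanned 1684 to 3163 over the other alternatives.

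Same-numbered samples did not deviate together (r from -0.103 to 0.116 over 18 pairs, 4 of 12 samples closest to their own number), so the numbers do not pair the samples. With the replicate number as a block, members called were 0 at 4 weeks, 6 at 8 weeks (Ndrg1 added) and 2 for the interaction (Vegfa and Bnip3). Genes called with the block were 393, 4398 and 1187, against 347, 4152 and 861 without it. Egln3 was not tested under the filter at the 75th percentile. Signal over background limited Ankrd37.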
